A study of Mus musculus with 12 samples.

Results

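The collagen genes of the mouse testis were described here as a set of 41 genes, out of 19057 genes with a named probe on the array. A gene entered the set when its symbol in the array annotation was Col, a number, the letter a and a number, and 91 of the 45281 probes carried such a symbol. The probe of highest mean over the 12 arrays stood for its gene. RNA came from testes of Topaz1-/- mice (KO) and of wild-type mice (WT), all of strain C57Bl/6N, and the 4 groups were KO at 20 days after birth (P20), WT at P20, KO at P15 and WT at P15. Each group held 3 samples, biological repeats by the design text, each on 1 Illumina bead array. Topaz1 is known as a factor of germ cells that meiosis in the male needs, and all comparisons below are of unseparated testis RNA, so that no value places a transcript in the interstitium between the tubules or in the tubule wall. The labels do not give the targeting allele or say whether animals were pooled.

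Collagens are triple-helical proteins of the extracellular matrix, built from 3 alpha chains that each have a gene of their own. Fibrillar collagens form the fibres of connective tissue, fibril-associated collagens decorate those fibres, and network-forming collagens make the sheet of basement membranes. In the testis, peritubular myoid cells and Sertoli cells together lay down the basement membrane of the seminiferous tubule, and fibroblasts and vessels of the interstitium add collagen around it. The postnatal testis meanwhile fills with germ cells, which make little matrix.

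Levels are given as log2 of the normalized intensity plus 50. A level above 7.53 on this scale lay above the estimated background of an array. Of the 41 genes, 34 lay above background on all arrays of at least 1 group. The other 7 did not: Col10a1, Col13a1 and Col19a1 were not well above background on any of the 12 arrays, and Col27a1, Col6a4, Col6a5 and Col6a6 were above it on some. Differences are limma estimates with their standard errors (SE), and a gene passed when its Benjamini-Hochberg p over all probes was below 0.05. With 3 arrays per group, the number of arrays limits the precision.

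The genome places some of these genes side by side. Col4a1 and Col4a2 on chromosome 8 start head to head, Col4a3 and Col4a4 on chromosome 1 also lie next to each other with overlapping spans, and Col6a1 and Col6a2 are neighbours on chromosome 10. The stretch between the starts of the first pair and the promoters of the collagen VI pair are shown because both members of each pair were lower at P20 than at P15 in both genotypes. The promoters of Col16a1 and Col24a1 are shown because these genes passed between KO and WT. All come from RefSeq on assembly GRCm38.p6, read 5′ to 3′ on the strand of the gene (the plus strand for the collagen IV stretch), and capitals mark a GC box (spelled GGGCGG), a box spelled CCAAT or a box spelled TATAAA, on either strand.
Col4a2 to Col4a1 start, chr8:11312805-11312826, plus strand: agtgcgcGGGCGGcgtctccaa
Col6a2 upstream, chr10:76623631-76623880, minus strand: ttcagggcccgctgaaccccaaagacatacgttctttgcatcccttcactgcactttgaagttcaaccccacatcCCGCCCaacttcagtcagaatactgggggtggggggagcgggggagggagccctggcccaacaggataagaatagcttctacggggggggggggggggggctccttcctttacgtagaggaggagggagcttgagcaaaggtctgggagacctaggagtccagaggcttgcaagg
Col6a1 upstream, chr10:76726045-76726294, minus strand: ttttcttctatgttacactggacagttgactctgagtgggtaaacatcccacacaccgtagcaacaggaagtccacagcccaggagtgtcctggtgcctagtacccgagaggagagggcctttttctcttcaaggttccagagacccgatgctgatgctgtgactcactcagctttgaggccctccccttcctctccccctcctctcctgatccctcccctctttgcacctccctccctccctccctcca
Col16a1 upstream, chr4:130047590-130047816, plus strand: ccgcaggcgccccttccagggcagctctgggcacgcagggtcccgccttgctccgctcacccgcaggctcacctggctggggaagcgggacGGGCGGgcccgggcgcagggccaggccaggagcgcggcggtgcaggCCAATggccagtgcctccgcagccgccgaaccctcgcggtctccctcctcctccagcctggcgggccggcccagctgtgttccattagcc
Col24a1 upstream, chr3:145292222-145292471, plus strand: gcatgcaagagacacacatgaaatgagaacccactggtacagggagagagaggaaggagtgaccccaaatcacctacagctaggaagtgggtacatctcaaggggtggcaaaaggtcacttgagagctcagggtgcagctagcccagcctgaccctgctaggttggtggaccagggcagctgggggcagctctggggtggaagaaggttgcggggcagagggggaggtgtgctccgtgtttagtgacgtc

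The 22 bases between the starts of Col4a2 and Col4a1 held a GC box. The annotated spans of this pair overlap, so these bases lie downstream of both starts, within both genes. They are not a stretch upstream of either start. The Col6a2 and Col16a1 windows held 1 GC box each, and that of Col16a1 also 1 of CCAAT. None of the 3 motifs was found in the shown windows of Col6a1 and Col24a1. Of the 41 genes, 33 had a promoter window in the table, which runs a little past the start of the gene. A GC box was found in 22 of these 33 (66.7%), against 38.2% of the 27025 genes with a window. CCAAT was found in 39.4% of the collagen genes and 41.1% of all genes, and TATAAA in 15.2% and 15.7%. The shown window of Col16a1 has 227 bases, and all of it lies within the annotated span of the long non-coding RNA gene Gm12963. These matches are letters in a window and were not tested as binding sites.

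Between P20 and P15 the collagen genes changed mostly downward, in both genotypes. In KO testes 13 of the 41 genes were lower at P20 and 5 were higher, against a background of 21.6% of all genes lower and 13.4% higher. In WT testes 15 were lower and 4 were higher, against 16.6% lower and 11.2% higher among all genes. Among genes above background in a group, 13 of 34 collagen genes were lower in KO, against 4087 of 12081 genes. In WT the counts were 15 of 34, against 3133 of 12081. By this measure the KO count lay near the share of all genes above background. The median change of the 41 genes was -0.20 in KO and -0.19 in WT, where that of all genes was -0.02 in each. The P20 and P15 arrays of the KO share no array with those of the WT. The fit, however, pooled the spread of each probe over all 4 groups. The SE of a gene was therefore the same in both genotypes (0.12 for Col4a1 in each). A gene of small spread can pass more easily in both, so the KO and WT lists are not independent. The genes lower in both genotypes numbered 11, which is 84.6% of the KO list and 73.3% of the WT list. The same overlap was not counted over all genes, so it is not shown to be particular to collagen genes. Those higher in both were Col16a1, Col2a1 and Col9a3. In bulk tissue, fewer cells of a type and less RNA per cell cannot be told apart.

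The collagen IV genes, which encode the chains of the basement membrane network, were all lower at P20 in sign, and 4 of 6 passed in each genotype. Col4a1 and Col4a2 encode the pair of chains found in nearly every basement membrane. Col4a1 stood at 11.24, 11.19 and 11.15 in KO P20 testes, against 12.11, 12.51 and 12.04 in KO P15 testes, a difference of -1.03 ± 0.12 (adjusted p = 0.00015). In WT it stood at 10.99, 11.23 and 11.18 at P20, against 12.46, 12.20 and 12.12 at P15, a difference of -1.13 ± 0.12 (adjusted p = 0.000129). No P20 array reached any P15 array, and the change amounted to 2.04-fold in KO and 2.18-fold in WT. Col4a2 stood at 10.01, 10.10 and 10.06 in KO at P20, against 11.37, 11.58 and 11.57 at P15. Its WT values were 9.95, 10.20 and 10.06 at P20, against 11.80, 11.47 and 11.00 at P15. Again the ages did not overlap, and Col4a2 fell by 1.45 in KO (SE 0.16, adjusted p = 8.74e-05) and by 1.35 in WT (SE 0.16, adjusted p = 0.000219).

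Col4a3, Col4a4 and Col4a5 encode the chains of the network that replaces the early one in some mature basement membranes, such as that of the glomerulus. Their changes were smaller. Col4a4 fell by 0.48 in KO (SE 0.10, adjusted p = 0.00399) and by 0.42 in WT (SE 0.10, adjusted p = 0.0118). Col4a3, its neighbour, passed in WT with -0.45 ± 0.14 (adjusted p = 0.0433) and had -0.39 ± 0.14 in KO (adjusted p = 0.0643), where the ages overlapped. Col4a5 passed in KO with -0.73 ± 0.17 (adjusted p = 0.00935) and had -0.52 ± 0.17 in WT (adjusted p = 0.0575). Its other probe had -0.33 ± 0.12 in KO (adjusted p = 0.0778) and -0.12 ± 0.12 in WT (adjusted p = 0.604). The ages overlapped for that probe in both genotypes. A gene that passed in 1 genotype and not in the other is not shown to differ between them: the difference of the KO effect between ages was 0.06 ± 0.19 for Col4a3 and -0.21 ± 0.24 for Col4a5, and neither passed. Col4a6 lay near background, between 7.48 and 7.78 on all arrays, with -0.06 ± 0.06 in KO and -0.13 ± 0.06 in WT.

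The multiplexins Col18a1 and Col15a1, collagens with interrupted helices that carry glycosaminoglycan chains and sit at basement membranes, both fell in both genotypes. Col18a1, whose end fragment is endostatin, stood at 11.61, 11.75 and 11.35 in KO at P20, against 12.62, 12.82 and 12.08 at P15. Its WT values were 12.04, 11.83 and 11.50 at P20, against 12.52, 12.49 and 12.37 at P15. The ages did not overlap, with -0.94 ± 0.19 in KO (adjusted p = 0.00394) and -0.67 ± 0.19 in WT (adjusted p = 0.0295). Of its other 2 probes above background, 1 had -0.71 ± 0.15 in KO and -0.60 ± 0.15 in WT, both past the threshold, and the other had -0.23 ± 0.09 and -0.13 ± 0.09, which did not pass. Col15a1 changed by -0.77 ± 0.23 in KO (adjusted p = 0.0345) and -0.84 ± 0.23 in WT (adjusted p = 0.0287). Its P15 values spread from 8.32 to 9.40 in KO and from 8.59 to 9.22 in WT, while all P20 values lay between 7.91 and 8.14.

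Collagen VI builds beaded filaments that link basement membranes to the fibres around them, and Col6a1 and Col6a2 encode chains that every such filament needs. Col6a1 stood at 10.91, 10.68 and 11.08 in KO at P20, against 11.77, 12.05 and 11.55 at P15. In WT testes the levels were 10.67, 10.70 and 10.73 at P20, against 12.31, 11.87 and 11.37 at P15. The 3 WT arrays of P20 were close together, and the differences were -0.90 ± 0.21 in KO (adjusted p = 0.00843) and -1.15 ± 0.21 in WT (adjusted p = 0.00292). Another of its probes gave -0.90 ± 0.23 in KO and -1.18 ± 0.23 in WT, and a further one -0.08 ± 0.08 and -0.12 ± 0.08, which did not pass. Col6a2 stood at 8.36, 8.32 and 8.59 in KO at P20, against 9.16, 9.34 and 8.92 at P15. The WT arrays read 8.34, 8.36 and 8.34 at P20, against 9.68, 9.35 and 8.82 at P15. Both neighbours therefore had the same order of arrays in WT at P15, replicate 1 highest and replicate 3 lowest. Col4a1, Col4a2, Col5a1 and Col1a1 had that order too, so it is not particular to this pair. Col6a2 fell by 0.72 in KO (SE 0.18, adjusted p = 0.0155) and by 0.93 in WT (SE 0.18, adjusted p = 0.00495), and its other probe had -0.13 ± 0.05 in KO and -0.01 ± 0.05 in WT. The chain gene Col6a3 had no named probe and was not analysed here.

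Col26a1, a collagen first described in testis and ovary of mice, was also lower at P20. It stood at 7.84, 7.88 and 7.86 in KO at P20, against 8.54, 9.01 and 8.42 at P15, a difference of -0.80 ± 0.13 (adjusted p = 0.00112). WT testes gave 8.10, 8.16 and 8.23 at P20, against 8.55, 8.85 and 8.59 at P15, a difference of -0.50 ± 0.13 (adjusted p = 0.021). Another probe above background gave 0.06 ± 0.05 in KO and 0.01 ± 0.05 in WT and did not pass, so the probes of this gene disagree. Col7a1, the anchoring fibril collagen, had -0.08 ± 0.06 in KO and -0.13 ± 0.06 in WT, and Col28a1 had 0.07 ± 0.06 and -0.05 ± 0.06; neither passed.

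Among the 11 fibrillar genes the changes ran both ways. Col5a1, whose chain sets the start and the width of collagen fibres, fell clearly. Its levels were 9.67, 9.48 and 9.41 in KO at P20, against 10.36, 11.00 and 10.45 at P15, a difference of -1.08 ± 0.17 (adjusted p = 0.000817). Its WT levels were 9.33, 9.18 and 9.45 at P20, against 10.48, 10.29 and 10.02 at P15, a difference of -0.94 ± 0.17 (adjusted p = 0.00285). Col1a1 and Col1a2 encode the chains of collagen I, the main fibre of connective tissue. Col1a1 stood at 9.11, 9.11 and 9.52 in KO at P20, against 10.40, 10.92 and 9.69 at P15. In WT it stood at 8.73, 8.89 and 9.19 at P20, against 10.94, 10.50 and 9.55 at P15. In each genotype the third P15 array lay well below the other 2 of its group, although above all P20 arrays of its genotype. Col1a1 passed in WT with -1.40 ± 0.36 (adjusted p = 0.0204) and missed the threshold in KO with -1.09 ± 0.36 (adjusted p = 0.0508).

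Col1a2 showed the reverse, passing in KO with -0.64 ± 0.16 (adjusted p = 0.011) and not in WT with -0.48 ± 0.16 (adjusted p = 0.0535). The difference of the KO effect between ages was 0.30 ± 0.51 for Col1a1 and -0.16 ± 0.22 for Col1a2, and neither passed. Col3a1, the collagen of reticular fibres, had -0.68 ± 0.27 in KO (adjusted p = 0.0997) and -0.27 ± 0.27 in WT (adjusted p = 0.61). Col5a2, a partner chain of Col5a1, was not well above background on any P20 array and stood at 7.63, 7.87 and 7.47 in KO at P15 and at 7.67, 7.64 and 7.57 in WT at P15. It was at least 1.09-fold lower at P20 in KO (adjusted p = 0.0508) and at least 1.07-fold lower in WT (adjusted p = 0.0821), measured against the background line, and passed in neither. Col5a3, Col11a1 and Col11a2 stayed between 7.40 and 7.75 on all arrays and passed in no comparison, with age changes between -0.10 and 0.06.

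Col2a1, best known as the main collagen of cartilage, rose. It stood at 8.53, 8.71 and 8.69 in KO at P20, against 7.67, 7.63 and 7.59 at P15, a difference of 1.01 ± 0.13 (adjusted p = 0.000289). Its WT arrays read 8.05, 8.50 and 8.69 at P20, against 7.57, 7.67 and 7.83 at P15, a difference of 0.72 ± 0.13 (adjusted p = 0.00358). Its P15 values were near background, and its other 2 probes above background also rose, by 0.35 and 0.58 in KO and by 0.34 and 0.43 in WT, each past the threshold.

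The fibril-associated collagens split as well. Col9a3 and Col16a1 rose, and Col9a2 and Col22a1 fell, in both genotypes. Col9a3, which encodes a chain of collagen IX, stood at 11.04, 10.96 and 10.88 in KO at P20, against 9.12, 9.03 and 9.30 at P15. In WT testes it stood at 10.19, 10.06 and 10.52 at P20, against 8.42, 8.55 and 9.45 at P15. The rise was 1.81 ± 0.23 in KO (adjusted p = 0.000207), or 3.51-fold, and 1.45 ± 0.23 in WT (adjusted p = 0.00131), or 2.74-fold. Collagen IX is a trimer of the products of Col9a1, Col9a2 and Col9a3, and its genes did not move together. Col9a2 stood at 7.81, 7.58 and 7.65 in KO at P20, against 8.07, 8.51 and 8.07 at P15, a difference of -0.54 ± 0.14 (adjusted p = 0.0184). In WT it had -0.69 ± 0.14 (adjusted p = 0.00634). Col9a1 lay near background throughout, with 0.12 ± 0.04 in KO and 0.07 ± 0.04 in WT, and did not pass. Thus 1 collagen IX gene rose, another fell and the third passed in neither genotype.

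Col16a1, a minor collagen of fibrils and microfibrils, stood at 11.92, 11.63 and 11.68 in KO at P20, against 10.00, 10.49 and 10.05 at P15, a rise of 1.57 ± 0.16 (adjusted p = 4.57e-05). WT levels were 10.96, 10.55 and 11.09 at P20, against 10.05, 9.92 and 9.85 at P15, a rise of 0.93 ± 0.16 (adjusted p = 0.00204). The ages did not overlap in either genotype. Col22a1, known from tissue junctions such as that of muscle and tendon, fell by 0.67 in KO (SE 0.08, adjusted p = 0.000112) and by 0.62 in WT (SE 0.08, adjusted p = 0.0003). Col14a1, which binds the surface of collagen I fibres, passed in WT with -0.59 ± 0.13 (adjusted p = 0.00796) and had -0.20 ± 0.13 in KO (adjusted p = 0.332). Its other probe above background had -0.17 ± 0.05 in WT (adjusted p = 0.0527) and -0.15 ± 0.05 in KO (adjusted p = 0.067). The difference of the KO effect between ages, 0.39 ± 0.18 for Col14a1, did not pass (adjusted p = 0.716).

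Of the short-chain and transmembrane collagens, Col8a2, known from the membrane beneath the corneal endothelium, passed in WT with -0.43 ± 0.10 (adjusted p = 0.00961) and had -0.27 ± 0.10 in KO (adjusted p = 0.0647). Col8a1 had -0.07 ± 0.05 in KO and 0.01 ± 0.05 in WT. Col17a1, the collagen of hemidesmosomes, had -0.27 ± 0.12 in KO and -0.33 ± 0.12 in WT, and Col23a1 had -0.22 ± 0.09 and -0.19 ± 0.09; none of these passed. The remaining calls concerned genes at the edge of detection. Col25a1 was above background on 3 WT P20 arrays and on no WT P15 array, at least 1.04-fold higher (adjusted p = 0.0178). Col27a1 was above background on 2 KO P20 arrays and on no KO P15 array, at least 1.04-fold higher (adjusted p = 0.0452). Another of its probes showed the reverse, above background on 3 KO P15 arrays and on no KO P20 array. That probe had -0.06 ± 0.04 in KO (adjusted p = 0.384), so the probes of Col27a1 disagree. The Col27a1 call ended under 20 of 27 alternatives. Col24a1 had 0.12 ± 0.03 in KO (adjusted p = 0.0203) and -0.02 ± 0.03 in WT (adjusted p = 0.76).

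**Figure D1:**
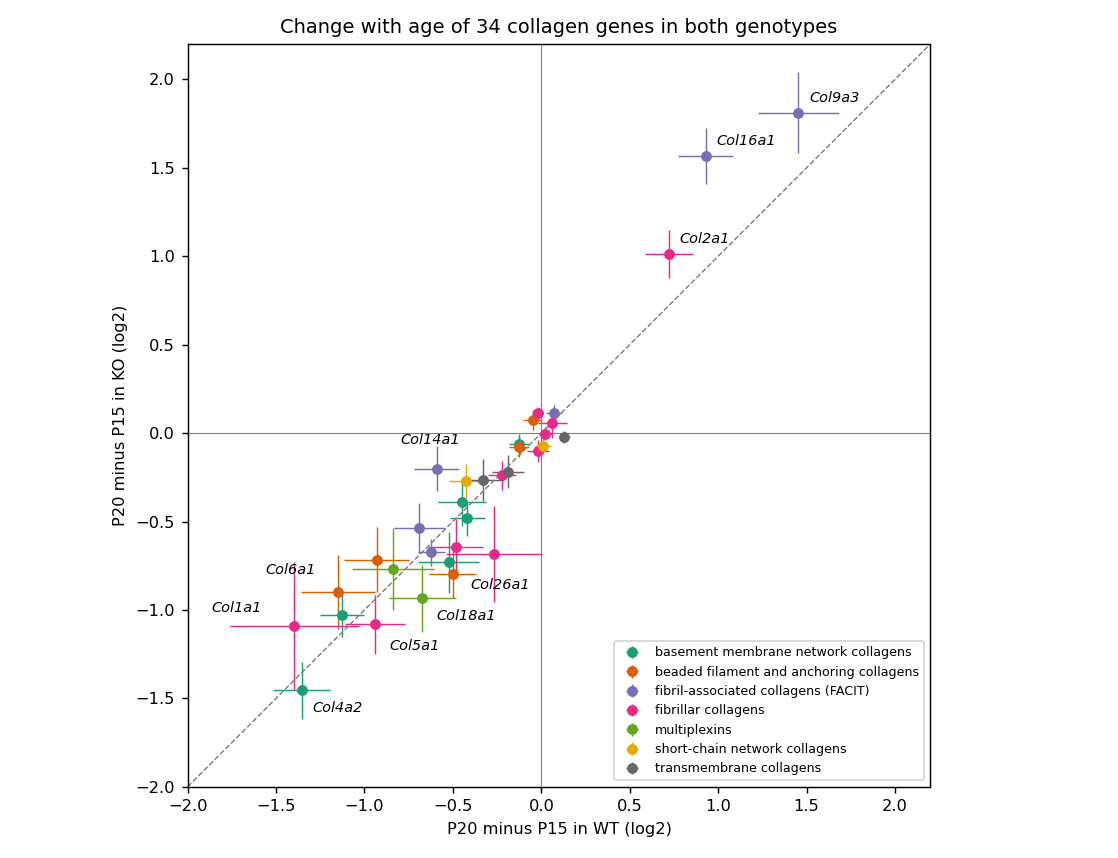
Difference between P20 and P15 (log2) in KO on the vertical axis and in WT on the horizontal axis, for the 34 collagen genes above background in a group; points are coloured by structural class, bars are SE, the dashed line marks equal changes, and 10 genes are named. Most genes lie in the lower left, where both genotypes are lower at P20, and Col16a1, Col2a1 and Col9a3, which passed in both, lie farthest to the upper right.

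Over the 34 genes above background the age changes of KO and WT had a Pearson correlation of 0.955 and a Spearman correlation of 0.935, and 29 had the same sign. This describes genes, which are not independent replicates, and the points share the probes and a normalization over all 12 arrays.

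The P15 arrays of a group differed from each other more than the P20 arrays for these genes. Among the 17 collagen genes lower with age in either genotype, the SD of the 3 arrays was larger at P15 than at P20 for 17 in KO and for 16 in WT, where the same held for 65.1% and 49.9% of all genes above background. The 17 were picked for lower P20 levels, and differences nearer background are compressed on this scale. The genes above background were not matched to them in level or direction. The part of this choice in the smaller P20 spread was not tested. KO P15 replicate 2 was the highest of its group for 16 of the 17, or 94.1%, against 31.6% of genes above background. WT P15 replicate 1 was the highest of its group for 13, or 76.5%, against 38% of genes. The arrays that carried high collagen values were thus the same for most of these genes. When each of the 12 arrays was left out in turn, 13 of the 18 calls in KO and 13 of the 19 in WT held every time, among them Col4a1, Col4a2, Col5a1, Col6a1, Col16a1, Col2a1 and Col9a3 in both genotypes. In KO the calls of Col15a1 (7 arrays), Col6a2 (3), Col9a2 (3), Col24a1 (3) and Col27a1 (10) ended without 1 array, with adjusted p values up to 0.157. Without KO P15 replicate 2 the calls of Col6a2, Col9a2 and Col15a1 all ended, and Col15a1 was at -0.47 (adjusted p = 0.0791). In WT the calls of Col4a3 (7 arrays), Col15a1 (5), Col18a1 (5), Col1a1 (4), Col26a1 (3) and Col25a1 (2) ended, with adjusted p values up to 0.146. Without WT P15 replicate 1 those of Col1a1, Col4a3, Col15a1 and Col18a1 ended, and Col1a1 was at -1.09 (adjusted p = 0.0802).

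Markers of the cells that could carry these transcripts were followed too, and are read against the 21.6% of all genes that were lower at P20 in KO and the 16.6% in WT. In KO and in WT alike, 4 of 9 peritubular myoid, 3 of 10 fibroblast and 6 of 9 endothelial markers were lower at P20 and none was higher. The endothelial share was well above the share of all genes, while 3 of 10 is not far from it. Among them Pdgfra, a receptor of stromal cells, had -1.33 ± 0.19 in KO (adjusted p = 0.000407) and -1.16 ± 0.19 in WT (adjusted p = 0.00145). Tcf21, a stromal transcription factor, was 2.97-fold lower at P20 in KO and 2.01-fold lower in WT, and Cdh5, the cadherin of endothelium, had -0.79 ± 0.11 and -0.60 ± 0.11, all past the threshold. Sertoli markers were lower for 10 of 10 genes in KO and 5 of 10 in WT. Of the 12 late germ cell markers, 6 rose in each genotype, where 13.4% of all genes rose in KO and 11.2% in WT. The summed intensity of the fibroblast markers was 10040 to 12050 in KO P20 testes, against 17030 to 21450 in KO P15 testes, and 10280 to 11420 in WT at P20, against 15260 to 17210 at P15. That of the germ cell markers was 90540 to 94700 in KO at P20, against 8829 to 21830 at P15, and 74590 to 85010 in WT at P20, against 7790 to 24820 at P15. KO P15 replicate 2, the array of high collagen values, had the highest fibroblast sum (21450), peritubular sum (32170) and endothelial sum (3187) of its group. It also had the highest Leydig (9603), adipocyte (3016) and mesothelium (1026) sums, but not the highest Sertoli, macrophage, erythroid, epididymis or germ cell sum. Among the partner lists given below, it was highest for folding, processing and interstitial matrix. Replicate 3 was higher for hydroxylation, degradation (16420, against 15640) and basement membrane partners (15490, against 12970). For collagen receptors replicate 2 was lowest (2831). Leydig markers, whose sum ran from 1963 to 9603 in KO at P15, had 1 of 7 lower in each genotype, no more than the share of all genes. Macrophage markers were lower for 3 of 7 in KO and 2 of 7 in WT, and no marker of erythroid cells or of the mesothelium and tunica passed. Adipocyte markers were higher at P20 for 5 of 10 in KO and lower for none, against none higher and 1 lower, Lpl, in WT. Of 9 epididymis markers, Defb2 (adjusted p = 0.0449) and Adam7 (adjusted p = 0.0428) were higher at P20 in KO and none passed in WT. The part of cell composition in the age differences was not tested.

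At P15 no collagen gene passed between KO and WT, in either direction, and the background was also near 0, with 0.00525% of all genes lower and 0% higher. In limma 3 of the 41 had an unadjusted p below 0.05, which is 7.32%, against 8.72% of all genes, and the lowest adjusted p was 0.573. That value belonged to Col3a1, which stood at 8.63, 9.67 and 8.37 in KO at P15, against 8.20, 8.12 and 8.09 in WT at P15. Its groups did not overlap, yet the difference of 0.75 ± 0.27 leaned on KO replicate 2, without which it was 0.36 (adjusted p = 0.789). Another Col3a1 probe gave 0.08 ± 0.13. Col1a2 had 0.39 ± 0.16 (adjusted p = 0.608), and Col4a1 had -0.04 ± 0.12, with a 95% interval of -0.31 to 0.24. For Col6a1 the interval was -0.52 to 0.40, and for Col1a1 the SE was 0.36, so moderate differences at P15 were not resolved for these genes.

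At P20 Col16a1 and Col24a1 passed, both higher in KO, and no collagen gene passed as lower. Among all genes 0.992% were higher and 0.404% lower at P20, so 2 of 41 is a small count against a small background. Col16a1 stood at 11.92, 11.63 and 11.68 in KO P20 testes, against 10.96, 10.55 and 11.09 in WT P20 testes. All KO arrays lay above all WT arrays, and the difference was 0.88 ± 0.16, or 1.84-fold (adjusted p = 0.0333). At P15 the difference was 0.24 ± 0.16 with overlapping groups (adjusted p = 0.797), and the change of the KO effect from P15 to P20, 0.64 ± 0.22, missed the threshold (adjusted p = 0.549). The Col16a1 call ended under 9 of 27 alternatives, among them the removal of any KO P20 array (adjusted p = 0.065 to 0.128), of WT P20 replicate 1 or 2 (0.0653 and 0.105) or of WT P15 replicate 2 (0.0621), and the replicate number as a block (adjusted p = 0.086).

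Col24a1, a fibrillar collagen first known from bone, stood at 7.82, 7.84 and 7.83 in KO at P20, against 7.64, 7.63 and 7.59 in WT at P20. The groups did not overlap, but all 6 values lay close to the background line of 7.53. The difference was 0.21 ± 0.03, or 1.15-fold (adjusted p = 0.0157), and another probe of the gene gave 0.19 ± 0.05 (adjusted p = 0.0892). At P15 its difference was 0.07 ± 0.03 (adjusted p = 0.65). The call ended under 7 of 27 alternatives, among them the removal of WT P20 replicate 2 or of KO P20 replicate 1 or 2 (adjusted p = 0.058 to 0.0627), with adjusted p between 0.00803 and 1, the highest where a fold of at least 1.5 was required.

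**Figure D2:**
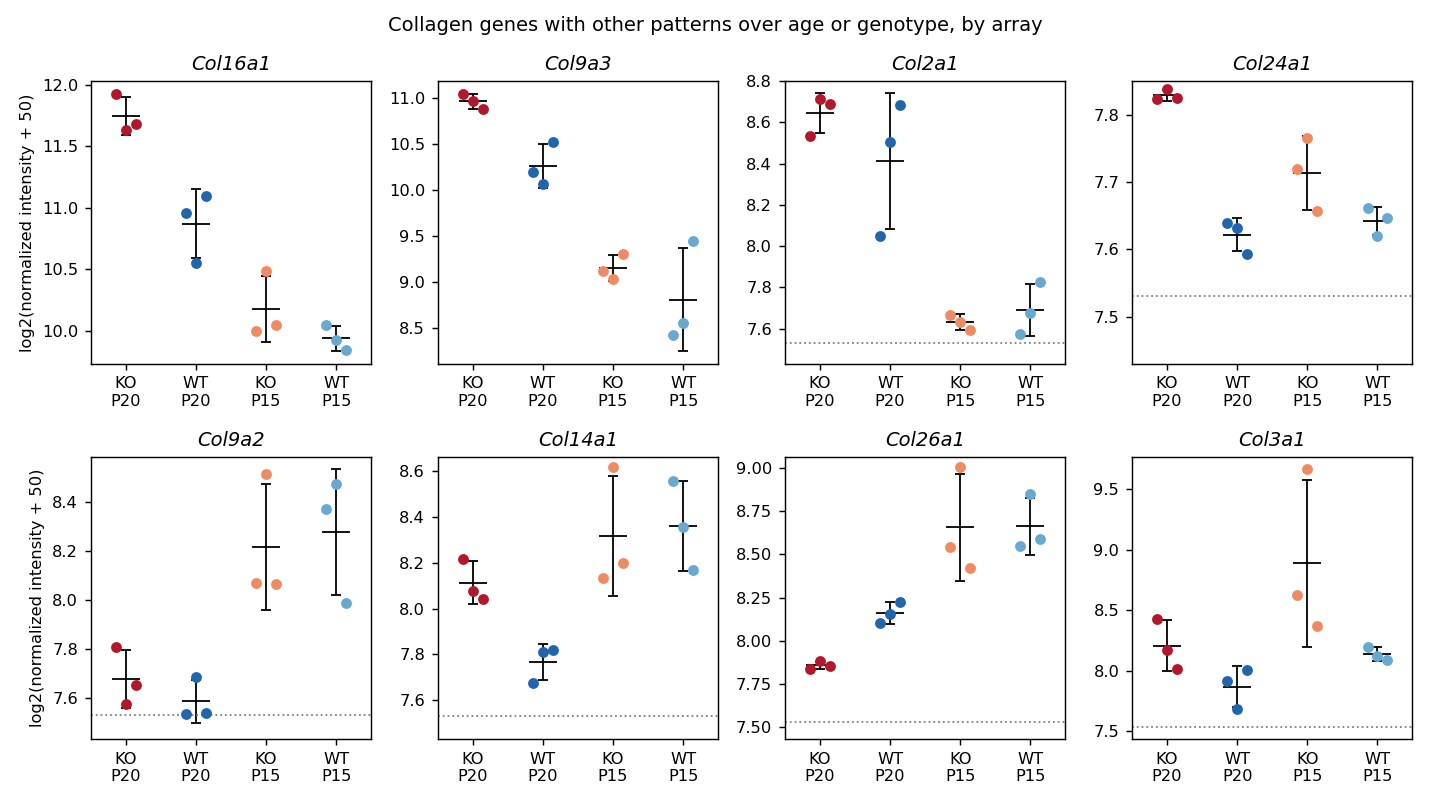
Levels of 8 further collagen genes, some higher and some lower at P20 than at P15, as log2 of normalized intensity plus 50. Points are arrays, the bar is the mean with the SD of 3 arrays, and the dotted line, where drawn, is the background line of 7.53. The KO P20 arrays of Col16a1 (11.63 to 11.92) and Col24a1 (7.82 to 7.84) lie above all WT P20 arrays, and KO P15 replicate 2 stands at 9.67 for Col3a1.

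Of the 41 genes, 10 had all KO arrays above all WT arrays at P20 and 2 had them all below, where 10.7% and 9.95% of all genes were so. The 41 genes had a median difference of 0.06 at P20, where all genes had 0.0029. The other non-overlapping genes did not pass. Col9a3 stood at 11.04, 10.96 and 10.88 in KO, against 10.19, 10.06 and 10.52 in WT, a difference of 0.70 ± 0.23 (adjusted p = 0.22). Col14a1 had 0.34 ± 0.13 (adjusted p = 0.302), while its other probe above background had 0.01 ± 0.05. Col3a1 had 0.34 ± 0.27, Col1a2 0.23 ± 0.16, Col17a1 0.22 ± 0.12, Col7a1 0.10 ± 0.06 and Col28a1 0.09 ± 0.06. Col13a1 is the last of the 10 and was not well above background on any array. Of the 34 genes above background in a group, 9 had all KO arrays above all WT arrays. Below WT on all arrays were Col26a1, with -0.30 ± 0.13 (adjusted p = 0.395), and Col25a1, with -0.10 ± 0.03 near background. In limma 6 of the 41 had an unadjusted p below 0.05, or 14.6%, against 15.2% of all genes.

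For the basement membrane genes the P20 differences were small in both directions. Col4a1 had 0.06 ± 0.12, with a 95% interval of -0.21 to 0.34, and Col4a2 had -0.01 ± 0.16, with an interval of -0.37 to 0.35. Col18a1 had -0.22 ± 0.19 and Col6a1 0.19 ± 0.21, and the other bright probe of Col6a1 had 0.55 ± 0.23 (adjusted p = 0.385). Col4a5 had 0.16 ± 0.17 by its brightest probe and -0.28 ± 0.12 by another, neither past the threshold. In a test of whether the genotype difference itself changed between ages, no collagen gene passed, the lowest adjusted p was 0.438, and 0.0735% of all genes passed. In limma 3 of the 41 had an unadjusted p below 0.05 in that test, or 7.32%, against 8.88% of all genes.

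**Figure D3:**
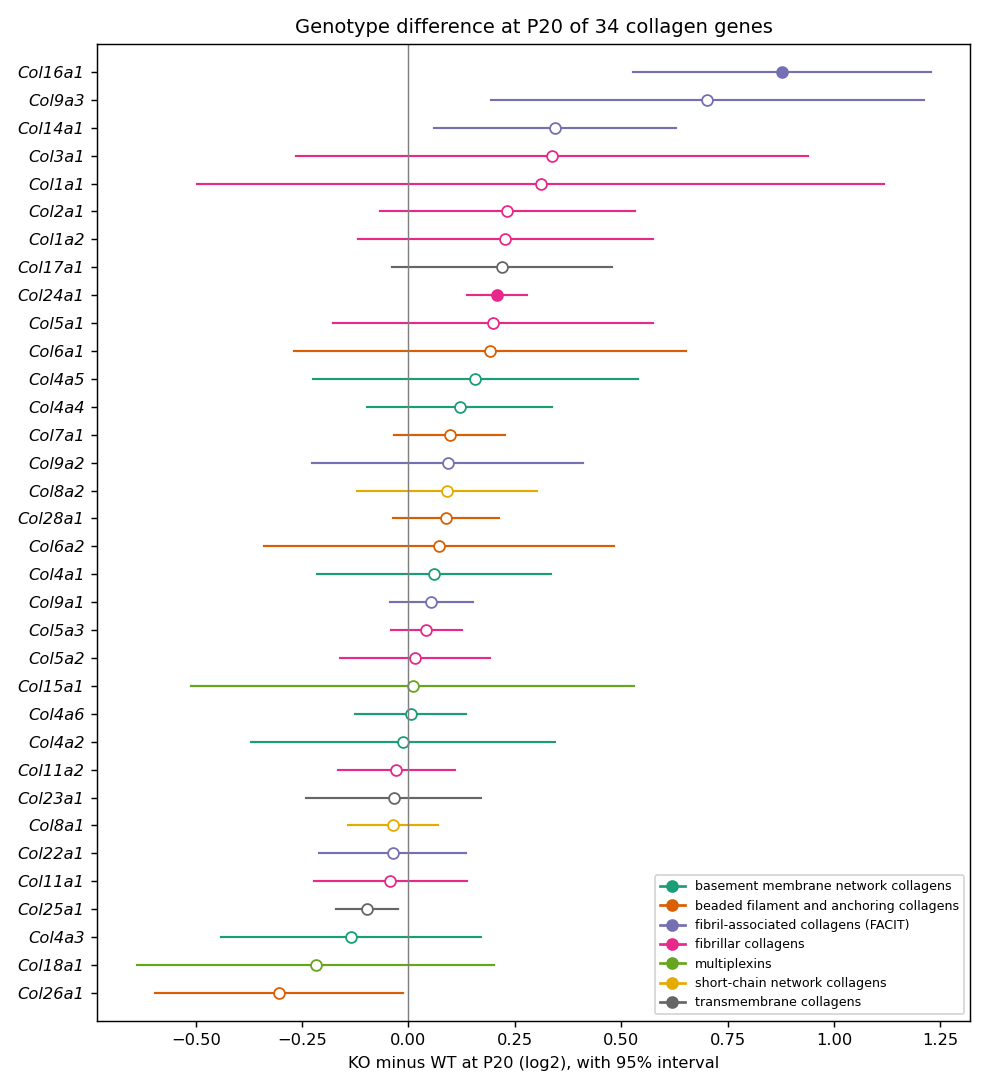
Difference between KO and WT at P20 (log2) for the 34 collagen genes above background in a group, with the 95% interval of the limma fit; colours are structural classes and filled points passed. Col16a1 (0.88) and Col24a1 (0.21) are filled, Col9a3 (0.70) has an interval above 0 without passing over all probes, and most other intervals include 0.

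Adipocyte markers differed between the P20 groups. Of 10 measured adipocyte markers 3 were higher in KO: Adipoq, the hormone adiponectin (1.27 ± 0.13, adjusted p = 0.00255), Cyp2e1, a cytochrome (1.23 ± 0.22, adjusted p = 0.0339), and Lpl, lipoprotein lipase (1.22 ± 0.22, adjusted p = 0.0323). The summed intensity of the list was 3129 to 3393 in KO at P20, against 1583 to 1975 in WT at P20, and 1 of its genes was above background on no array. The epididymal transcript Defb2 stood at 10.83, 7.50 and 11.14 in KO at P20, against 7.43, 7.45 and 8.62 in WT at P20. The groups overlapped, and the difference of 1.99 ± 0.77 did not pass (adjusted p = 0.33), nor did any other of the 9 measured epididymis markers, of which 5 were above background on no array. On KO P20 replicate 2, where Defb2 was at 7.50, Col16a1 stood at 11.63 and the adipocyte sum at 3161, both above the highest WT P20 value. Without the other 2 KO P20 arrays the Col16a1 difference was 0.76 (adjusted p = 0.354) and that of Col24a1 0.22 (adjusted p = 0.196). That fit holds 1 KO P20 array, whose spread is borrowed from the remaining groups, and with all arrays the differences were 0.88 and 0.21. The part of adipose or epididymal tissue in the Col16a1 and Col24a1 differences was not tested.

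The enzymes and matrix partners of the collagens were followed through 7 lists, read against the same shares of all genes, 21.6% lower in KO and 16.6% in WT. The lists of hydroxylation and of basement membrane partners stood well above these shares, while the counts for processing in KO and for receptors in WT lay near or below them. Of 15 genes of collagen hydroxylation and glycosylation, 12 were lower at P20 in KO and 9 in WT, and none was higher. In KO the largest changes were P3h4, a partner of lysyl hydroxylase (-1.04 ± 0.13), Ppib, the isomerase cyclophilin B (-0.97 ± 0.13), Colgalt1, a collagen galactosyltransferase (-0.97 ± 0.10), and P4ha2, a prolyl hydroxylase subunit (-0.82 ± 0.12). In WT the largest were Ppib (-0.95 ± 0.13), Colgalt1 (-0.85 ± 0.10), P3h4 (-0.70 ± 0.13) and Crtap, a subunit of the prolyl hydroxylase complex that acts at another position of the ring (-0.62 ± 0.14). Of 9 folding and export genes, 3 were lower and 2 higher in KO, and 1 was lower and 1 higher in WT. Serpinh1, the collagen chaperone of the endoplasmic reticulum, stood at 11.07, 11.11 and 11.11 in KO at P20, against 12.21, 12.79 and 12.11 at P15 (-1.27 ± 0.17, adjusted p = 0.000271). In WT it stood at 11.21, 11.19 and 11.18 at P20, against 12.41, 12.12 and 11.86 at P15 (-0.93 ± 0.17, adjusted p = 0.00283). Its arrays had the same order as many collagens, with KO P15 replicate 2 and WT P15 replicate 1 highest. The higher genes were Tmem38b, an ion channel of the same organelle, by 0.37 ± 0.09 in KO and 0.39 ± 0.09 in WT, and Sec23a, a coat protein of export vesicles, by 0.55 ± 0.17 in KO. Fkbp14, an isomerase of procollagen folding, was lower at P20 in KO (-0.52 ± 0.13).

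Of 11 genes of procollagen processing and cross-linking, 3 were lower in KO and 4 in WT. Bmp1, the protease that cuts the end of procollagen, fell by 1.19 in KO (SE 0.17) and by 0.98 in WT (SE 0.17), Loxl1, a cross-linking oxidase, by 0.53 and 0.73, and Pcolce, the enhancer of Bmp1, by 0.60 and 0.51. Adamts14, a protease of the other end of procollagen, passed in WT with an adjusted p of 0.0194 but was not well above background on any array, so no size is given. Of 15 genes of collagen degradation and its inhibitors, 5 were lower in KO and 8 in WT. The gelatinase gene Mmp2 fell by 1.18 in KO (SE 0.19) and 1.49 in WT (SE 0.19), its activator Mmp14 by 1.30 and 0.90, and the inhibitor Timp3 by 0.91 and 0.61, and Timp2 by 0.79 and 0.52. Timp2, an inhibitor that also takes part in the activation of Mmp2, stood at 11.33, 11.22 and 11.39 in KO at P20, against 11.85, 11.80 and 11.63 in WT at P20. It was lower in KO, with a difference of -0.45 ± 0.07 (adjusted p = 0.0137), and no other gene of the 7 lists passed between KO and WT at either age. Cst9, a Sertoli marker, was also lower in KO at P20 (-0.34 ± 0.06, adjusted p = 0.0299). All 10 measured Sertoli markers had negative differences at P20, with a median of -0.26, and 6 lay below WT on all arrays, where 9.95% of all genes did. Their summed intensity was 66690 to 76290 in KO at P20, against 81390 to 85820 in WT at P20, and the part of Sertoli cells in the Timp2 difference was not tested.

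Basement membrane partners of collagen IV were lower at P20 for 11 of 14 genes in KO and 9 of 14 in WT, and none was higher. Hspg2, which encodes perlecan, stood at 10.39, 10.44 and 10.29 in KO at P20, against 11.20, 11.33 and 11.75 at P15 (-1.05 ± 0.15, adjusted p = 0.000431). The WT values were 10.16, 10.39 and 10.31 at P20, against 11.64, 11.36 and 11.13 at P15 (-1.09 ± 0.15, adjusted p = 0.00053). Lamc3 (-1.06 ± 0.12), Lamb2 (-0.88 ± 0.17) and Lama1 (-0.88 ± 0.08), all laminin chains, followed in KO, and Agrn, the proteoglycan agrin (-0.96 ± 0.16), Lama1 (-0.76 ± 0.08) and Lamc1 (-0.73 ± 0.08) in WT. Of 19 partners of the interstitial matrix, 8 were lower in KO and 9 in WT, and again none was higher. Dcn, Dpt, Lum and Mfap5 belong to this list and to the fibroblast markers, so these lists are not independent. Mfap4, a microfibril protein, had -1.71 ± 0.33 in KO and -1.55 ± 0.33 in WT, Eln, elastin, had -1.15 ± 0.19 and -1.09 ± 0.19, and Bgn, the proteoglycan biglycan, had -1.11 ± 0.09 and -0.87 ± 0.09. Sparc, a collagen-binding glycoprotein, had -0.84 ± 0.17 in KO, and Ogn, osteoglycin, had -0.87 ± 0.22 in WT. Among 9 collagen receptors, 3 were lower in KO, namely the receptor kinase Ddr1 (adjusted p = 0.00846), the common integrin chain Itgb1 (-0.47 ± 0.06) and Itga11, and 1 in WT, namely Itga11, an integrin of stromal cells (-0.94 ± 0.19 in KO and -0.88 ± 0.19 in WT).

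**Figure D4:**
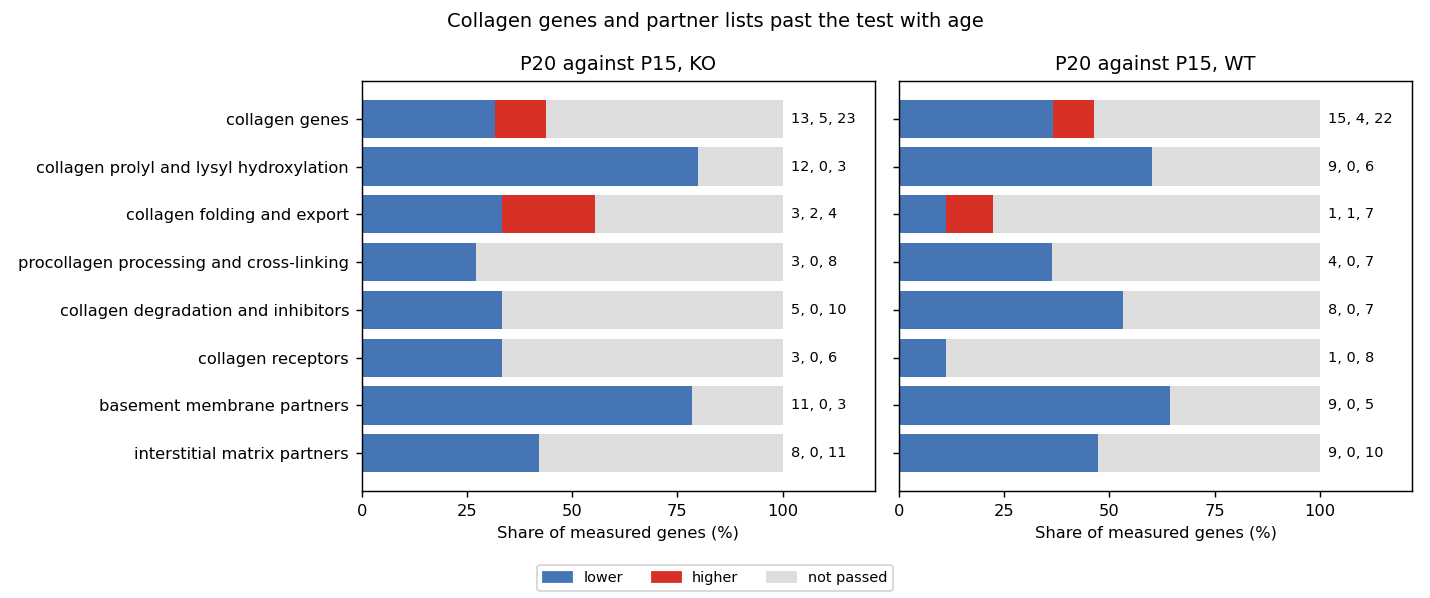
Share of measured genes (%) that were lower, higher or not past the test at P20 against P15, in KO on the left and in WT on the right, for the collagen genes and the 7 partner lists; the numbers beside each bar are the counts lower, higher and not passed. Lower genes outnumber higher ones in every list but folding and export in WT, and the hydroxylation list (12 of 15 in KO) and the basement membrane list (11 of 14 in KO) have the largest shares.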

How the data were processed

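Total RNA of 12 testis samples was labelled with biotin and hybridised to Illumina bead arrays, per the labels' protocols, and read with BeadStudio, per the submitters' processing notes. The authors deposited linear intensity values without normalization and processed intensity values. The processed values are quantile-normalized intensities: quantile normalization of the unnormalized values gave log2 values that differed from theirs by 0.0124 at the largest. Detection p-values and control probes were not used here, and 0 columns belonged to other samples. The processed values plus 50 were taken to log2. They were not background-subtracted, which compresses changes. Background per array was the mode plus the one-sided 95% normal quantile times the SD of values below the mode. The fit of limma 3.58.1 (R 4.3.3) took in all 45281 probes (4 group means, 5 comparisons, 8 residual and 2.14 prior degrees of freedom, Benjamini-Hochberg over all probes, threshold 0.05). The limma script was tested on simulated data. P-values measure the spread between samples that the design text calls biological repeats.

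The named collagen genes were all those above background in a group, and in a partner list up to 4 genes past the threshold of largest change. In marker lists fewer were named than that rule allows. The members and lists were chosen with earlier results of these data known. Alternatives were other normalizations, offsets, filters, fits and probes, and leaving out arrays. Protein sequences were not used here. A check of replicate numbers across groups gave correlations of deviations from group means of -0.381 to 0.223 for same-numbered samples. Differently numbered samples gave -0.286 to 0.426. With 3 samples per group these correlations are few and depend on each other, so they show no pairing and cannot exclude one.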

Additional observations from a re-analysis of the deposited data

Results flagged for a closer look

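Col25a1, a membrane collagen known from amyloid plaques of the brain, had opposite genotype differences at the 2 ages. It was higher in all KO arrays than in all WT arrays at P15 (7.50, 7.50 and 7.56 in KO, against 7.47, 7.48 and 7.44 in WT) and lower in all KO arrays at P20 (7.44, 7.53 and 7.52 in KO, against 7.58, 7.63 and 7.57 in WT). The difference of the KO effect, P20 minus P15, was -0.15 ± 0.05 on the log2 scale and did not pass in limma (adjusted p = 0.438). All values lie near the background line of 7.53.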

How the results depend on the processing

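No collagen gene changed direction as a called result in any alternative. At P15, and for the difference between ages, the count stayed at 0 in all alternatives. The 2 collagen genes higher in KO at P20 became 1 with normexp at an offset of 16, in a fit of those groups alone, with the mean over probes, with a fold of at least 1.5 and with the replicate number as a block (Col24a1 kept its call there, Col16a1 had an adjusted p of 0.086), became 0 without the 2 KO P20 arrays of high epididymis transcripts (which leaves 1 KO P20 array, with the spread taken from the remaining groups), and ranged from 0 to 3 when each array was left out. In the fit of the 2 groups alone 1 gene, Col26a1, passed as lower in KO at P20 (adjusted p = 0.0353). Of the genes higher at P20 than at P15 in KO, 5 became 3 with 75th percentile scaling, normexp at an offset of 16, an intensity trend, a fit of the 2 groups alone, the mean over probes, a fold of at least 1.5 or without those KO P20 arrays, and 3 to 5 when each array was left out. Of those lower, 13 became 6 without those arrays, again with 1 array in that group, and 10 to 17 when each array was left out. In WT, 15 lower became 10 to 17 and 4 higher became 3 to 4 when each array was left out. The replicate block changed no other count by over 1.5 times. The numbers are shared across groups, and correlations of -0.381 to 0.223 for same-numbered samples cannot exclude a pairing. Single genes that passed, and some named genes that did not, kept their side of the threshold in 1287 comparisons of a gene with an alternative. These include genes that stayed not passed. A call was gained in 56 comparisons and lost in 114. The causes of these changes in count were not tested. Detection against background limits genes near 7.53, whose changes are compressed.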
